A study of Rattus norvegicus with 63 samples.

Results

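CYP3A4 is the human symbol of a cytochrome P450 of the endoplasmic reticulum that oxidises a large share of drugs, steroids and bile acids. A panel of 158 antibody-defined analytes was measured in the livers of 63 rats, and the members described here are all analytes that carry the symbol CYP3A4. This rule gave 2 of the 158 analytes, CYP3A4_1 and CYP3A4_2, which are numbered antibodies that carry the same symbol. The name of the antibody behind each number and the rat protein that it binds are not given in the sources used here. The panel also held CYP3A5, which was treated as a separate analyte, and the rat protein that its antibody binds is not given either.

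Male Wistar Hanover rats of 8 to 10 weeks were dosed by gavage, and the liver lysates were measured on reverse-phase protein arrays, on which each lysate is printed as spots and probed with a single antibody. The value of an analyte is a relative fluorescence intensity (RFI) on a linear scale. Each of 15 compounds was given to 3 animals, 45 in all, and 18 animals in 6 sets of 3 received only the vehicle. Per the study's methods, the 3 animals of a compound were chosen from a larger dose group by their liver findings, so they are selected animals.

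Set 1, set 2, set 5 and set 6 were methylcellulose controls labelled 14 days, set 3 was a corn oil control of 7 days, and set 4 was a corn oil control of 14 days. Compounds are placed in sets by their labels. For 6 of them (CFX, Nif, DES, ETH, PBO and PB) the authors' deposited log2 ratios to controls fitted another set better. Acetamide (AA, 3000 mg/kg per day), dehydroepiandrosterone (DHEA, 600) and methylcarbamate (Mcarb, 400) for 14 days, methapyrilene HCl (MPy, 60) and thioacetamide (TAA, spelled Thioacetamid in the labels, 19.2) for 7 days, and Wy-14643 (Wy, 60) for 3 days belonged to set 1. Cefuroxime (CFX, 250) and nifedipine (Nif, 3), both for 14 days, belonged to set 2. Diethylstilbestrol (DES, 10) and piperonylbutoxide (PBO, 1200), both for 3 days, and ethionine (ETH, 200) for 14 days belonged to set 5. Phenobarbital sodium (PB) for 14 days belonged to set 6. The labels give no dose for PB, although the study's methods state one for phenobarbital. C.I Direct Black (CIDB, 146) and dimethylnitrosamine (DMN, 4) for 7 days belonged to set 3, and cyproterone acetate (CPA, 100) for 14 days belonged to set 4. By the labels, the dosing time of 5 compounds (MPy, TAA, Wy, DES and PBO) differed from that of their control set, although the study's methods describe the controls as matched in time. If the labels hold, compound and time cannot be told apart there.

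CYP3A enzymes are inducible. In hepatocytes, many drugs and steroids bind the pregnane X receptor (gene symbol NR1I2), which pairs with the retinoid X receptor on repeated hexamer elements upstream of CYP3A genes and raises their transcription. Phenobarbital is known to raise CYP2B and CYP3A enzymes through the related constitutive androstane receptor. All microsomal P450 enzymes receive electrons from NADPH-cytochrome P450 reductase, the product of POR.

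The rat has no gene named CYP3A4. The RefSeq table of the GRCr8 assembly lists 8 genes whose symbol starts with Cyp3a, all on chromosome 12 and none named Cyp3a5. The upstream sequences of 2 of them, Cyp3a23-3a1 and Cyp3a2, are shown because they hold the repeated element described above, and because they are candidate sources of the proteins that a CYP3A4 antibody can meet in rat liver. The search was for the direct repeat TGAACTNNNTGAACT on both strands, that is the hexamer TGAACT repeated after a gap of 3 bases, in windows from 250 bases before to 50 bases after each start. These 2 windows were the matches among 33469 windows, a share of 0.00598%. Only this hexamer and gap were searched, so the share does not measure how particular such elements are to CYP3A genes. The hexamer alone occurred on either strand in 4844 windows (14.5%), and every window with the repeat also holds the hexamer. The 100 bases from 190 to 91 bases before the start follow, 5′ to 3′ on the minus strand of GRCr8, at chr12:14398894-14398993 for Cyp3a23-3a1 and chr12:14343948-14344047 for Cyp3a2, with the repeat in capitals.
Cyp3a23-3a1: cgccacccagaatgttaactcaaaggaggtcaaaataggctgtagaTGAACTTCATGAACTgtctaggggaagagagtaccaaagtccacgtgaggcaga
Cyp3a2: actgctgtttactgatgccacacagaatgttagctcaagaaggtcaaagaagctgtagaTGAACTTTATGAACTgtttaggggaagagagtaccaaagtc
The repeat began 144 bases before the start of Cyp3a23-3a1 and 131 bases before that of Cyp3a2. These matches describe the sequence only, since binding was not measured.

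The first animal of set 6 stood apart from the other livers. Its median RFI over all analytes was 0.882, the highest of the 63 animals, against 0.587 and 0.597 in the other animals of that set, and it held the highest value of all animals in 64 of the 158 analytes. The PB results and the differences between set 6 and other control sets include this animal, and are also given without it. How far they depended on it differed between antibodies. Without it the PB log2 fold change moved from -0.54 to -0.10 in CYP3A4_1, but from 2.26 to 2.19 in CYP3A4_2. Median RFI over the 63 animals ran from 0.425 to 0.882, and the lowest was that of the third animal of set 4, the control set of CPA. That animal also held the lowest value of all animals in POR (6.75 RFI) and CYP2C8 (0.374 RFI). Of the hepatocyte markers chosen for the check of the tissue, 3 of 8 symbols were on the panel (HNF4A, CYP2E1 and GLUL), and group means of HNF4A ran from 1.33 RFI in CIDB to 2.44 RFI in set 6. HNF4A was called lower in CIDB and in PB (-0.59 on the log2 scale in PB, limma adjusted p = 0.035), and the PB call was lost without the first animal of set 6 (-0.45, adjusted p = 0.408) and after centring (-0.18, adjusted p = 0.419). GLUL, the glutamine synthetase of hepatocytes around the central vein, read at or below 0 in 10 animals, which were left out of its fit. It was called lower in CIDB, TAA, DES (-2.77, adjusted p = 0.0217) and Wy (-3.73, adjusted p = 0.00149, without 1 of the 3 Wy animals). None of these 4 GLUL calls was made in the deposited log2 ratios or when values at or below 0 were set to the lowest positive one (adjusted p 0.0522 to 0.976). The CYP2E1 antibodies were not called in any compound. None of the markers chosen for bile duct, stellate, leukocyte or endothelial cells was on the panel, so the part of other cell types in the values was not tested. In whole liver lysate, fewer hepatocytes and less protein per hepatocyte cannot be told apart.

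CYP3A4_2 was the analyte of the panel that varied most between groups, and CYP3A4_1 varied little. The SD of the 21 group means of log2 RFI was 1.80 for CYP3A4_2, rank 1 of the 158 analytes, and 0.17 for CYP3A4_1, rank 91. Within groups the SD of log2 RFI was 0.40 for CYP3A4_2 and 0.31 for CYP3A4_1. CYP3A4_1 was the brighter signal, with a median of 6.11 RFI over all animals against 1.20 RFI for CYP3A4_2, but brightness depends on the antibody and levels were compared within an antibody only. None of the CYP3A4_1, CYP3A4_2 or CYP3A5 values was at or below 0, so all 63 animals entered each fit of these analytes.

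**Figure D1:**
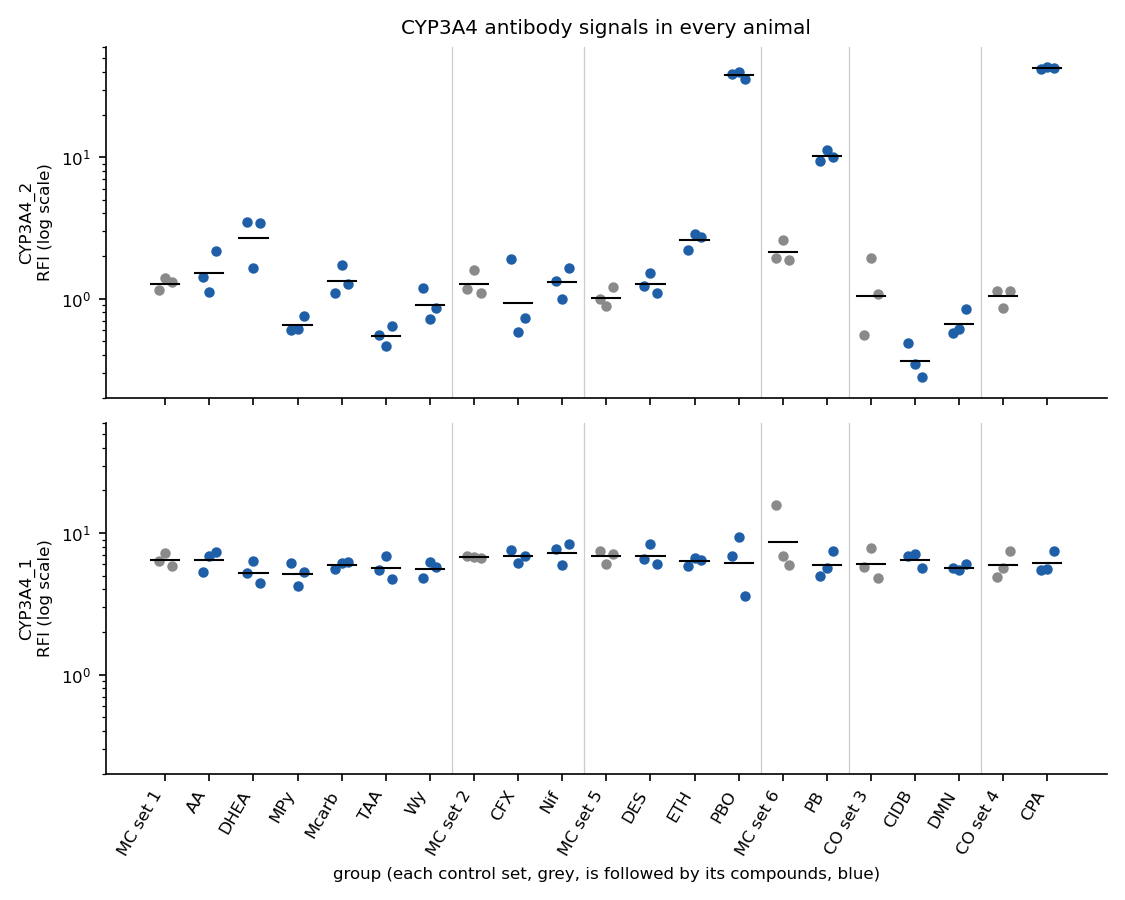
RFI of CYP3A4_2 (top) and CYP3A4_1 (bottom) in each of the 63 animals, on a log axis, with control sets in grey, compounds in blue and the mean of log2 RFI as a bar. CYP3A4_2 spans 0.281 to 43.3 RFI with CPA, PBO and PB far above all control animals, whereas CYP3A4_1 spans 3.6 to 15.7 RFI and its highest point is the first animal of set 6.

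CYP3A4_2 changed in 7 of 15 compounds, with 5 higher (CPA, PBO, PB, ETH and DHEA) and 2 lower (CIDB and TAA) than their labelled control sets. A call here means an adjusted p below 0.05 in limma with Benjamini-Hochberg adjustment over the 158 analytes of a comparison. Over all analytes and compounds together, 1.43% of the tests were called higher and 1.73% lower.

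The signal was highest after cyproterone acetate, a steroidal antiandrogen and progestin. CYP3A4_2 read 41.7, 43.3 and 42.9 RFI in the 3 CPA livers and 1.14, 0.865 and 1.14 RFI in the livers of set 4. The lowest CPA value lay far above the highest control value. The rise was 41.1-fold (95% interval 26.3 to 64.2), a log2 fold change of 5.36 (SE 0.32, n = 3 against 3, limma adjusted p = 4.34e-19). In this comparison 5.06% of the analytes were called higher. The CPA animals differed little from each other, with a coefficient of variation of 1.98% against 15% in set 4.

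Piperonylbutoxide, an insecticide synergist that inhibits P450 enzymes, gave a signal nearly as high after 3 days. CYP3A4_2 read 38.8, 40.0 and 35.6 RFI in the PBO livers and 0.999, 0.881 and 1.20 RFI in set 5, again without overlap. The rise was 37.4-fold (95% interval 23.9 to 58.4), a log2 fold change of 5.23 (SE 0.32, limma adjusted p = 1.2e-18), where 5.06% of the analytes were called higher. The control set of PBO was labelled 14 days.

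Phenobarbital gave an intermediate level. CYP3A4_2 read 9.32, 11.2 and 10.1 RFI in the PB livers and 1.94, 2.60 and 1.89 RFI in set 6. All PB values lay above all control values. The rise was 4.78-fold (95% interval 3.06 to 7.48), a log2 fold change of 2.26 (SE 0.32, limma adjusted p = 5.63e-07), where 1.9% of the analytes were called higher. Without the first animal of set 6 the log2 fold change was 2.19. Set 6 had the highest CYP3A4_2 signal of the control sets, so the size of the PB change depended on the reference. It was 2.99 on the log2 scale against set 1, 3.00 against set 2, 3.32 against set 5, and 3.66 in the deposited table of log2 ratios.

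The other 2 rises were small, and whether they were called depended on the reference. Ethionine, an analogue of methionine, gave 2.21, 2.88 and 2.71 RFI against 0.999, 0.881 and 1.20 RFI in set 5. The groups did not overlap, and the log2 fold change was 1.34 (SE 0.32, 2.54-fold, limma adjusted p = 0.0189), where 0.633% of the analytes, CYP3A4_2 alone, were called higher. Against the other methylcellulose sets the ETH change was not called, with log2 fold changes of 1.01 for set 1 (adjusted p = 0.184), 1.03 for set 2 (adjusted p = 0.214) and 0.28 for set 6 (adjusted p = 0.812). It was also lost in the deposited log2 ratios (1.05, adjusted p = 0.258) and when the second or the third ETH animal or the second animal of set 5 was left out (adjusted p up to 0.197). The ETH call was kept against all methylcellulose controls together (0.92, adjusted p = 0.026) and after centring each animal on its median (1.27, adjusted p = 0.0262). Dehydroepiandrosterone, a steroid precursor, gave 3.49, 1.66 and 3.42 RFI against 1.15, 1.39 and 1.31 RFI in set 1. The second DHEA animal was close to the controls and the other two were well above them. The log2 fold change was 1.08 (SE 0.32, 2.11-fold, limma adjusted p = 0.0297), where 1.27% of the analytes were called higher. The call was lost when the first or the third DHEA animal or any one animal of set 1 was left out (log2 fold change 0.89 to 1.14, adjusted p up to 0.248). It was lost against set 6 (0.35, adjusted p = 0.467) and kept against set 2 (1.09, adjusted p = 0.0358) and set 5 (1.41, adjusted p = 0.00197).

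The lowest signals were seen after C.I Direct Black, a benzidine-based azo dye. CYP3A4_2 read 0.49, 0.347 and 0.281 RFI in the CIDB livers and 0.553, 1.95 and 1.08 RFI in set 3. The groups did not overlap, although the highest CIDB value came within 0.1 RFI of the lowest control. The signal was 2.90-fold lower, a log2 fold change of -1.53 (SE 0.32, limma adjusted p = 3.86e-04), where 3.16% of the analytes were called lower. Set 3 was the most variable control set (coefficient of variation 59.1%), and against set 4 the log2 fold change was -1.51 (adjusted p = 5.52e-04). In a fit of the 6 animals alone the adjusted p was 0.0617. Among the hepatocyte markers of the same livers, GLUL fell from a mean of 0.952 to 0.0974 RFI (-3.89 on the log2 scale, limma adjusted p = 1.72e-04) and HNF4A from 1.93 to 1.33 RFI (-0.54, adjusted p = 0.0382). The HNF4A call was lost against both corn oil sets together (-0.41, adjusted p = 0.102). The part of these markers in the CYP3A4_2 change was not tested.

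Thioacetamide, a classical liver toxicant, gave 0.557, 0.46 and 0.644 RFI against 1.15, 1.39 and 1.31 RFI in set 1. All TAA values lay below all control values. The signal was 2.33-fold lower, a log2 fold change of -1.22 (SE 0.32, limma adjusted p = 0.0353), where 3.16% of the analytes were called lower. The call was lost after centring each animal on its median (log2 fold change -0.97, adjusted p = 0.108) and in the deposited log2 ratios (-1.14, adjusted p = 0.476), and with values at or below 0 set to the lowest positive one (adjusted p = 0.0522). It was also lost against set 5 (-0.89, adjusted p = 0.171), and when the second TAA animal or any one animal of set 1 was left out (adjusted p up to 0.198). The call was kept against set 2 (-1.21, adjusted p = 0.0358), set 6 (-1.95, adjusted p = 3.11e-05) and all methylcellulose controls together (-1.32, adjusted p = 5.81e-04). CYP3A4_2 has no value at or below 0. In TAA its adjusted p equalled that of GLUL, both in the main fit and with such values replaced. The Benjamini-Hochberg adjustment can carry a value over from another analyte, so the call also rested on the GLUL fit. GLUL was called lower in TAA too (-4.00, adjusted p = 0.0353), in a fit that kept 1 of the 3 TAA animals, and HNF4A had a log2 fold change of -0.23 (adjusted p = 0.747). The part of these markers in the CYP3A4_2 change was not tested.

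Methapyrilene, an antihistamine, was the nearest of the compounds without a call. CYP3A4_2 read 0.599, 0.614 and 0.752 RFI in the MPy livers, all below the set 1 animals, with a log2 fold change of -0.97 (SE 0.32, limma adjusted p = 0.301). The share of analytes called was 0% for MPy, AA, CFX, Mcarb and Nif, 1.27% for DMN, 2.53% for DES and 8.86% for Wy. The MPy change was called when all methylcellulose controls formed the reference (log2 fold change -1.07, adjusted p = 0.00837) and in the fit of its 6 animals alone (adjusted p = 0.00881). DMN (-0.66), Wy (-0.50), CFX (-0.45), DES (0.31), AA (0.24), Mcarb (0.06) and Nif (0.04) had smaller log2 fold changes, and the treated and control animals overlapped in each. Their 95% intervals reached from -1.30 (lower end, DMN) to 0.95 (upper end, DES), so a missing call does not show an unchanged level. At an unadjusted p below 0.05 there were 9 compounds, the 7 called ones with MPy and DMN.

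**Figure D2:**
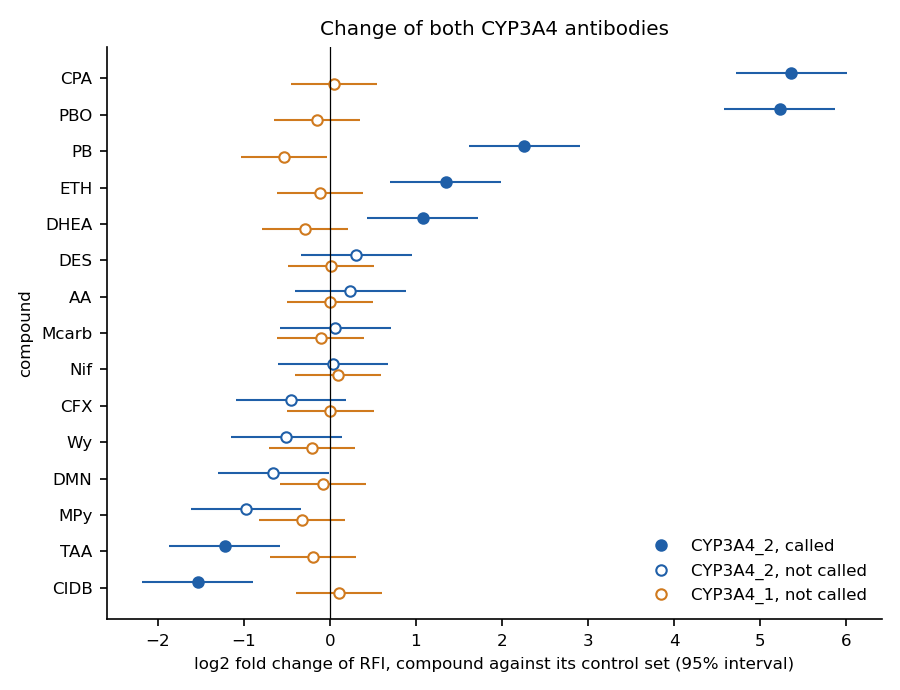
Log2 fold change of RFI with its 95% interval for both antibodies (x axis) in the 15 compounds (y axis), each against its labelled control set, with filled points for called changes. CYP3A4_2 runs from -1.53 in CIDB to 5.36 in CPA with 7 filled points, and all 15 points of CYP3A4_1 are open and lie between -0.54 and 0.11.

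Ordered by mean log2 RFI, CYP3A4_2 had CPA, PBO and PB at the top, clear of all other groups. CPA exceeded PBO by 0.16 on the log2 scale, which is less than the SE of 0.32 of a difference between groups, although the 3 values of each did not overlap. PBO exceeded PB by 1.91, and PB exceeded DHEA by 1.91, each without overlap. From DHEA downward, the range of every group overlapped that of the next. ETH and DHEA, with means of 2.60 and 2.86 RFI, were next to set 6 with 2.15 RFI, and the first ETH value of 2.21 lay below the highest animal of set 6. At the lower end stood DMN (0.677 RFI), MPy (0.655 RFI), TAA (0.554 RFI) and CIDB (0.373 RFI). These neighbours were chosen by their values, so no p is given for them.

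CYP3A4_1 was not called in any compound against its labelled control set. Its log2 fold changes ran from -0.54 to 0.11, and their 95% intervals reached from -1.04 to 0.61 at the widest. At an unadjusted p below 0.05 there was 1 compound, PB. In the livers with the highest CYP3A4_2 signals, CYP3A4_1 read 5.46, 5.59 and 7.43 RFI after CPA against 4.92, 5.64 and 7.44 RFI in set 4. It read 6.94, 9.41 and 3.6 RFI after PBO against 7.48, 6.07 and 7.1 RFI in set 5. In both compounds the treated and control animals overlapped. For PB the values were 5.0, 5.7 and 7.43 RFI against 15.7, 6.9 and 5.96 RFI in set 6, a log2 fold change of -0.54 (SE 0.25, limma adjusted p = 0.164). Without the first animal of set 6 the difference was -0.10 (adjusted p = 0.951), and without the third it was -0.80 (adjusted p = 0.0296). With set 6 as the reference of all methylcellulose compounds, 2 compounds (DHEA and MPy) were called lower in CYP3A4_1.

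The antibodies differed from each other in the size of the change, as tested on the difference CYP3A4_2 minus CYP3A4_1 within each animal. This difference was called in 7 compounds after adjustment over the 11 pairs of same-named antibodies, a limma fit in which 12.7% of all pair tests were called. It was 5.38 on the log2 scale in PBO (SE 0.37, limma adjusted p = 3.07e-17) and 5.32 in CPA (adjusted p = 4.65e-17). In PB it was 2.79 (adjusted p = 1.28e-08), and 2.30 without the first animal of set 6 (adjusted p = 2.63e-06). ETH (1.46, adjusted p = 0.00359) and DHEA (1.37, adjusted p = 0.00731) followed, and CIDB (-1.65, adjusted p = 7.57e-04) and TAA (-1.03, adjusted p = 0.032) went the other way. The TAA difference was not called in a fit of its 6 animals alone (adjusted p = 0.0758), or when the first or the second TAA animal or any one animal of set 1 was left out (adjusted p up to 0.266). The DHEA difference was not called without the third DHEA animal (adjusted p = 0.126). The other pairs with calls were those of CYP2B6, CYP1A2 and CYP2E1, in up to 5 compounds.

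**Figure D3:**
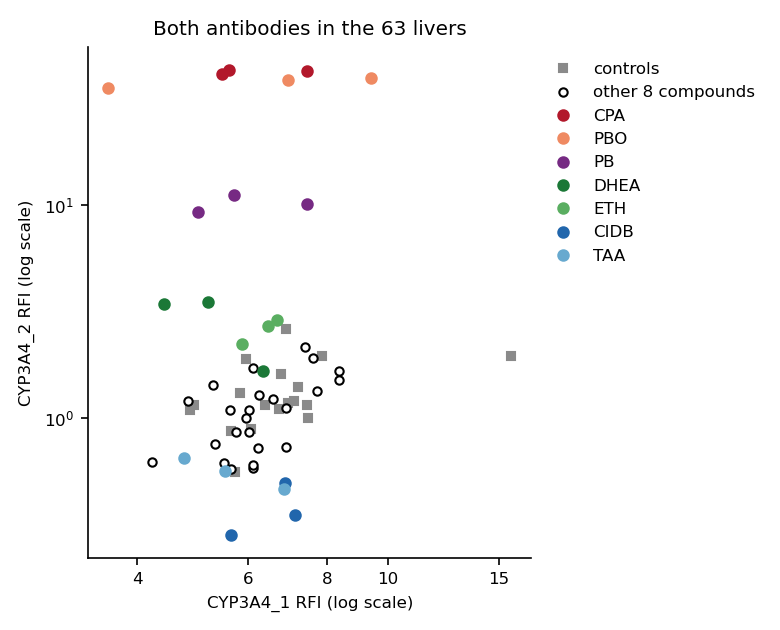
CYP3A4_1 RFI (x axis) against CYP3A4_2 RFI (y axis), both on log axes, 1 point per animal. The CPA, PBO and PB animals are set off along the y axis at CYP3A4_1 values from 3.6 to 9.41 RFI, and 1 control animal, the first of set 6, lies alone at 15.7 RFI on the x axis.

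Within groups, no relation between the antibodies across animals passed the test. Over deviations from the group mean of log2 RFI, Pearson r was 0.144 in the 45 treated animals (permutation p = 0.299, adjusted 0.694) with Spearman rho 0.198 (permutation p = 0.247, adjusted 0.494). In the 18 control animals r was 0.194 (permutation p = 0.545, adjusted 0.71) with rho 0.278 (permutation p = 0.355, adjusted 0.532). Without the 2 animals farthest from the median of CYP3A4_1, r was 0.141 and 0.343. In the deposited log2 ratios r was 0.378 in the treated animals (permutation p = 0.0279, adjusted 0.167) and 0.041 in the controls. Adjustment was over the 6 relations of each coefficient.

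The untreated livers give the background of these values. Among the 18 control animals CYP3A4_2 ran from 0.553 to 2.60 RFI. Set 6 was the highest set, above set 5 by 1.06 on the log2 scale (SE 0.32, limma adjusted p = 0.142), set 2 by 0.74 (adjusted p = 0.694) and set 1 by 0.73 (adjusted p = 0.714). Without the first animal of set 6 these were 1.12 (adjusted p = 0.254), 0.81 (adjusted p = 0.994) and 0.79 (adjusted p = 1.0). These differences were of the size of the DHEA change but were not called, and 0.0904% of all tests between control sets of the same vehicle were called. The corn oil sets differed from the methylcellulose sets by -0.39 (SE 0.20, adjusted p = 0.133) in CYP3A4_2 and by -0.26 (SE 0.15, adjusted p = 0.188) in CYP3A4_1. The first of these was called when the second animal of set 3 was left out (-0.61, adjusted p = 0.0357). In CYP3A4_1, set 6 exceeded set 1 by 0.42 (adjusted p = 0.953) and differed from it by -0.0067 without the first animal of set 6.

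The study asked how liver molecules separate non-genotoxic carcinogens (NGC: AA, DES, DHEA, ETH, Mcarb, MPy, PB and PBO), genotoxic carcinogens (GC: CIDB and DMN) and non-carcinogens (NC: CFX and Nif). CPA, TAA and Wy, whose class the study left undefined at the start, were not placed in a class here, and their CYP3A4_2 means on the scale below include 5.23 for CPA and -1.26 for TAA. With the compound as the unit, CYP3A4_2 did not differ between classes by the test. The 8 NGC means of log2 ratio to the control median ranged from -1.01 in MPy to 5.25 in PBO, so the class itself held compounds with higher and lower signals. The GC means were -1.57 and -0.70, and the NC means were -0.33 and 0.16. NGC minus NC was 1.28 (SE 1.20, limma adjusted p = 0.967), NGC minus GC was 2.33 (SE 1.20, adjusted p = 0.679) and GC minus NC was -1.05 (SE 1.51, adjusted p = 0.867). For CYP3A4_1 these differences were -0.22, -0.25 and 0.03, with adjusted p of 0.527, 0.535 and 0.983. With 2 compounds in a class, these intervals are wide.

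CYP3A5, the nearest relative on the panel by its symbol, had group means that correlated at r = 0.037 with CYP3A4_2 and r = -0.092 with CYP3A4_1 over the 21 groups, given as a description. Against the labelled control sets it was called in Wy alone, a peroxisome proliferator that activates the receptor PPARA. CYP3A5 had a mean of 1.54 ± 0.0579 RFI in Wy and 0.538 ± 0.0544 RFI in set 1 (SD, n = 3), a log2 fold change of 1.52 (SE 0.18, limma adjusted p = 1.45e-08). In the same livers CYP3A4_2 read 1.19, 0.722 and 0.854 RFI, a log2 fold change of -0.50 (adjusted p = 0.503). In CPA and PBO the CYP3A5 log2 fold changes were -0.13 (adjusted p = 0.653) and 0.14 (adjusted p = 0.722). DHEA, also known as a peroxisome proliferator in rats, had 0.48 (adjusted p = 0.11), with CYP3A5 higher in all 3 DHEA animals than in set 1. The DHEA change was called after centring (0.69, adjusted p = 0.0188) and in the deposited log2 ratios (0.83, adjusted p = 0.0418).

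The panel held 13 other P450 analytes, and with 9 further analytes (among them POR, HNF4A, GLUL and 3 PPARA antibodies) these made up the 22 analytes of a drug-metabolism list. Of 330 tests of the list in the 15 compounds, 8 were called higher (2.42%) and 9 lower (2.73%), beside 1.43% and 1.73% over all analytes. P450 analytes, with 195 of the tests, made up 6 of the higher and 3 of the lower calls. The other 6 lower calls were those of GLUL and HNF4A. The lower count was 19 with all controls of a vehicle as the reference and 2 in the deposited log2 ratios. The 3 compounds with the highest CYP3A4_2 signals held 7 of the 8 higher calls, the other being CYP3A5 in Wy. They also held many of the 34 higher calls over all analytes and compounds, with 8 in CPA, 8 in PBO and 3 in PB. These 34 calls include those of CYP3A4_2 itself. The median log2 fold change of the list was 0.32 in CPA, 0.17 in PBO and -0.26 in PB, beside 0.23, 0.15 and -0.29 over all 158 analytes. Without the first animal of set 6 the PB medians were -0.06 for the list and -0.10 over all analytes.

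CYP2B6_1, an antibody with the symbol of the main phenobarbital-inducible P450, was called higher in all 3. It rose by 2.92 on the log2 scale in PB (SE 0.33, limma adjusted p = 3.88e-09), from 0.56, 0.439 and 0.362 RFI in set 6 to 3.17, 3.2 and 3.81 RFI, and by 3.08 without the first animal of set 6. It rose by 2.92 in PBO (adjusted p = 1.25e-09), from 0.438, 0.371 and 0.434 RFI to 2.84, 3.53 and 3.07 RFI. It rose by 2.04 in CPA (adjusted p = 1.54e-05), from 0.383, 0.26 and 0.289 RFI to 0.935, 1.29 and 1.66 RFI. CYP2B6_1 was thus lowest of the 3 compounds in CPA, where CYP3A4_2 was highest, and PB and PBO had like CYP2B6_1 levels while their CYP3A4_2 levels lay 1.91 apart on the log2 scale. In ETH and DHEA, CYP2B6_1 had log2 fold changes of -0.03 (adjusted p = 0.986) and 0.11 (adjusted p = 0.873).

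Other P450 analytes were called in 1 or 2 compounds each. CYP1A2_1, named for an enzyme of aromatic amine oxidation that dioxin-type inducers raise, rose by 2.47 in PBO (SE 0.26, limma adjusted p = 1.53e-10) and fell by 0.82 in Wy (adjusted p = 0.031). The Wy call was lost in the deposited log2 ratios (adjusted p = 0.147) and in 5 of 6 fits without 1 animal. CYP2C8 rose by 1.77 in CPA (SE 0.41, adjusted p = 0.00266), from a mean of 1.26 to 3.53 RFI, and this was not called against both corn oil sets together (1.15, adjusted p = 0.0534), in the fit of the 6 animals alone (adjusted p = 0.336) or without the third animal of set 4 (1.05, adjusted p = 0.257). CYP2B6_3 fell by 2.19 in Wy (adjusted p = 0.00149) and by 1.68 in TAA (adjusted p = 0.0431). The TAA call was lost after centring (-1.43, adjusted p = 0.0765), in the deposited log2 ratios (adjusted p = 0.476) and in 5 of 6 fits without 1 animal, and with a pseudocount of 0.1 neither was called (adjusted p = 0.276 in Wy and 0.745 in TAA). CYP1A1_1, CYP1A1_2, CYP1A2_2, CYP2B6_2, CYP2D6, CYP2E1_1, CYP2E1_2 and CYP4F2 were not called in any compound. In CIDB, where CYP3A4_2 was lowest, none of the 13 other P450 analytes was called, and the list's calls were the lower ones of GLUL and of HNF4A, a transcription factor that maintains hepatocyte genes.

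**Figure D4:**
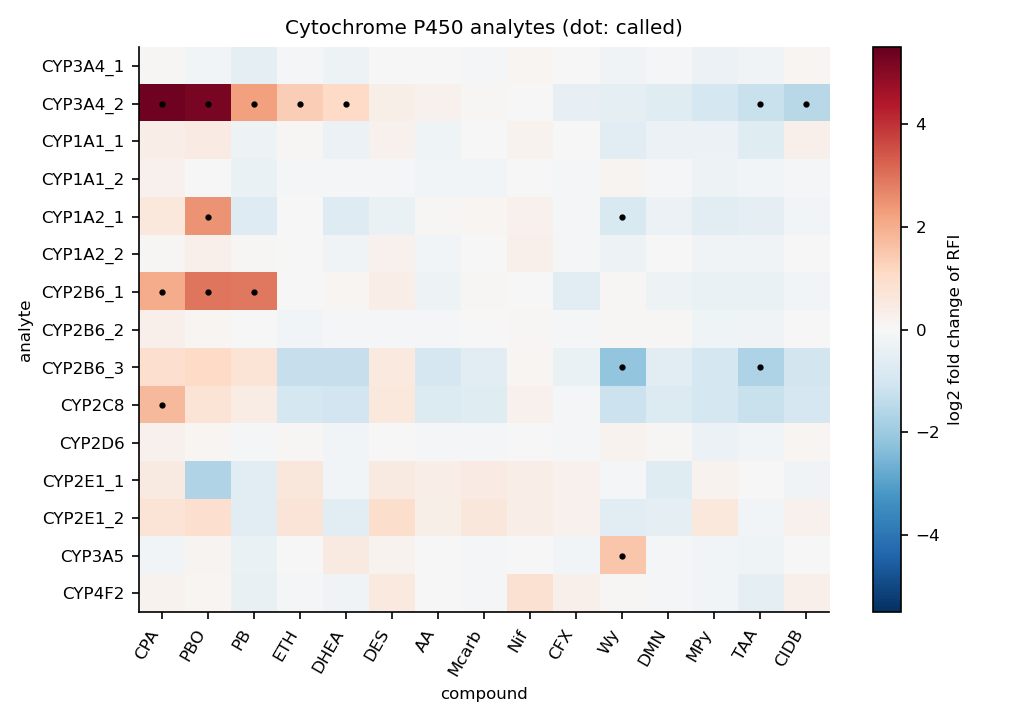
Log2 fold change of RFI of both CYP3A4 antibodies and 13 other P450 analytes (rows) in 15 compounds (columns, ordered by CYP3A4_2), with red for higher and blue for lower than the control set and a dot for called changes. CYP3A4_2 has dots at both ends of the order, CYP2B6_1 has them in CPA, PBO and PB, and CYP3A5 has its dot in Wy.

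The analytes whose 21 group means were most like CYP3A4_2 were CYP2B6_1 (Pearson r = 0.87), POR (r = 0.859) and CYP2B6_3 (r = 0.654) among 157 other analytes. These correlations are descriptions over groups measured on the same arrays, with the few values at or below 0 left out, and they rest mainly on CPA, PBO and PB. Over the other 18 groups r was 0.593, 0.428 and 0.304. POR rose by 1.49 on the log2 scale in PBO (SE 0.25, limma adjusted p = 1.4e-05), with 37.7, 48.5 and 25.4 RFI against 13.8, 10.8 and 14.1 RFI. It rose by 1.29 in CPA (adjusted p = 2.77e-04), with 16.1, 25.1 and 30.8 RFI against 9.46, 13.3 and 6.75 RFI, a call that was lost in the fit of the 6 animals alone (adjusted p = 0.142). Without the third animal of set 4 the POR rise in CPA was 1.05 (adjusted p = 0.0141). In PB its log2 fold change was 0.67 (adjusted p = 0.0718), and 0.91 without the first animal of set 6 (adjusted p = 0.0709). The PB change was called higher after centring (1.08, adjusted p = 0.00246), against all methylcellulose controls (0.77, adjusted p = 0.0134) and in the deposited log2 ratios (1.12, adjusted p = 0.00694). CYP3A4_2 ranked 148 of 157 in likeness to CYP3A4_1, with r = 0.013. The analytes most like CYP3A4_1 were PRKAA1 (r = 0.79), a catalytic subunit of AMP-activated kinase, serine-phosphorylated STAT3 (r = 0.788) and STAT5A (r = 0.779), none of them a P450, and none of these values was centred for differences between animals. Set 6 had the highest group mean log2 RFI of CYP3A4_1 (3.11), PRKAA1 (-0.86) and STAT5A (1.32). The correlations were not repeated without its first animal, so the part of that liver in them was not tested.

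**Figure D5:**
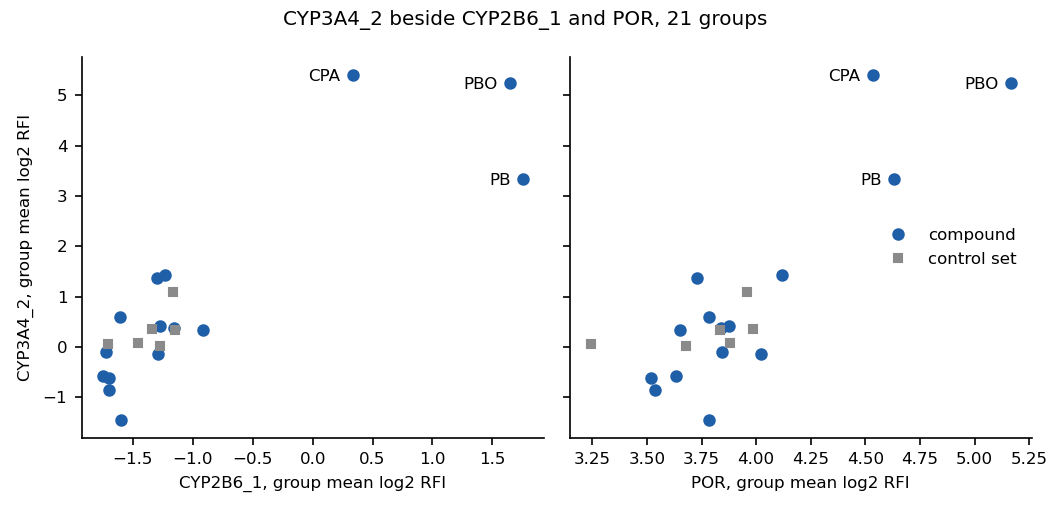
Group mean log2 RFI of CYP3A4_2 (y axis) against that of CYP2B6_1 (left) and POR (right), 1 point for each of 15 compounds and 6 control sets. CPA, PBO and PB stand apart from the other 18 groups at the upper right of both panels, with CPA to the left of PB and PBO for CYP2B6_1.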

How the data were processed

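The arrays (ZeptoMARK) held liver lysates of 63 rats. The authors deposited for each animal an RFI per analyte, a linear intensity that per the study's methods had the local background subtracted and was scaled within its array, with replicate spots combined as a weighted mean. They also deposited a table of log2 ratios to the control median with imputed values, which served as an alternative. Its reference fitted another set than the labelled one best for 6 compounds, and its offsets are not explained. The mismatch over analytes (median absolute deviation, log2) was 0.223 for the labelled and 0.113 for the best set in CFX. It was 0.237 and 0.113 in Nif, 0.265 and 0.106 in DES, and 0.246 and 0.092 in ETH. In PBO it was 0.266 and 0.139, and in PB 0.251 and 0.196. The best fit was set 6 for CFX and Nif, set 2 for DES, ETH and PBO, and set 5 for PB. Whether the set labels hold for these compounds was not tested. Against these sets CYP3A4_2 was called higher in PBO (log2 fold change 4.91) and PB (3.32). It was not called there in ETH (1.03, limma adjusted p = 0.214), CFX (-1.19, adjusted p = 0.0778), Nif or DES. 0 of its columns lacked a sample. For CYP3A4_1, CYP3A4_2 and CYP3A5, within-group deviations in the 2 sources correlated at 0.652, 0.776 and 0.677.

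RFI at or below 0 (25 of 9954 values, none of CYP3A4) was set to missing. Log2 RFI was fitted with limma 3.58.1 (R 4.3.3) as 21 group means over all animals, and each compound was compared with its labelled control set. Two-sided p-values were adjusted (Benjamini-Hochberg) over 158 analytes (11 pairs for differences between antibodies). The median of all analytes shifted by up to 0.29 (log2, lower, PB) and 0.23 (higher, CPA). Equal replicate numbers deviated together in CPA and set 4 (r 0.159 to 0.307) but not in PB and set 6 (r 0.007 to 0.069). The test was tried on simulated data. Correlations used 100000 permutations within groups (Python 3.11.15, scipy 1.17.1). Named analytes are the CYP3A4 antibodies, the P450 analytes of the list and the 3 analytes most like each antibody. Members, lists and tests were chosen with earlier results of these data known. P-values rest on the spread between these selected animals, and the 3 animals of each group limit the precision. Promoter windows are from RefSeq (GRCr8).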

Additional observations from a re-analysis of the deposited data

How the results depend on the processing

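CPA, PBO and PB kept their CYP3A4_2 calls, all higher, in every alternative fit other than the exact permutation test, with log2 fold changes of 5.14 to 5.43 in CPA, 4.17 to 5.34 in PBO and 2.18 to 3.66 in PB. The 4 smaller calls did not, as given beside each. An exact permutation test of 3 animals against 3 cannot go below 0.1, and each of the 7 called compounds had that p. With the replicate number as a block, a fit of 6 animals, the block changed no call in CPA or PB. In this balanced layout a block cannot change the log2 fold change, which was 5.36 in CPA and 2.26 in PB. In PB the blocked fit gave CYP2B6_1, HNF4A and POR the same SE (0.33), so the spread of each analyte did not enter by itself. The fits of 6 animals alone left the values as they were while the adjusted p of CIDB (-1.53) and of the TAA antibody difference (-1.03) passed above the threshold and that of MPy (-0.97) below it. Setting values at or below 0 to the lowest positive one left TAA at -1.22 with an adjusted p of 0.0522. The number of compounds lower in CYP3A4_2 was then 1, as it was after centring and in the deposited log2 ratios. CYP3A4_2 has no value at or below 0, and in TAA its adjusted p equalled that of GLUL with and without this replacement. The cause of the other changes was not tested.

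After centring, TAA stood at -0.97, and values near 0 changed sign in CYP3A4_2 for Nif (-0.042) and in CYP3A4_1 for CPA (-0.18), corn oil minus methylcellulose (0.017) and GC minus NC (-0.22). With all controls of a vehicle as the reference, MPy stood at -1.07, CYP3A4_2 changed sign in DES (-0.12), Mcarb (-0.036) and Nif (-0.073), the antibody difference in DES was -0.073, and 19 drug-metabolism tests were called lower in place of 9. In the deposited log2 ratios, TAA (-1.14) and ETH (1.05) were not called, 2 drug-metabolism tests were called lower, and sign changes were seen in CYP3A4_2 for Nif (-0.59), in CYP3A4_1 for CPA (-0.084), NGC minus GC (0.18) and GC minus NC (-0.36), and in the antibody difference for DES (-0.089).

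Other control sets of the same vehicle, and the fits of drug-metabolism analytes over 6 animals, without 1 animal or with low values replaced, were tried after the data were seen. Against set 6, CYP3A4_2 was not called in DHEA (0.35) and ETH (0.28), was called lower in MPy (-1.70) and Wy (-1.23), and changed sign in AA (-0.49), DES (-0.75), Mcarb (-0.67) and Nif (-0.71). There CYP3A4_1 was called lower in 2 compounds. Against set 1 and set 2, ETH stood at 1.01 and 1.03 and DES at -0.021 and -0.0095. Against set 5, TAA stood at -0.89.

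With each animal left out in turn, CYP3A4_2 log2 fold changes ran from 0.89 to 1.43 in DHEA, 1.24 to 1.46 in ETH, -1.34 to -1.10 in TAA, -0.025 to 0.46 in AA, -0.12 to 0.21 in Mcarb and -0.14 to 0.23 in Nif. Corn oil minus methylcellulose ran from -0.61 to -0.16. CYP3A4_1 ran from -0.80 to -0.10 in PB, -0.45 to 0.24 in PBO and -0.10 to 0.21 in CPA, and set 6 exceeded set 1 by -0.0067 to 0.69, set 2 by -0.086 to 0.61 and set 5 by -0.096 to 0.60. The antibody difference ran from 1.08 to 1.86 in DHEA, -1.27 to -0.76 in TAA and -0.15 to 0.11 in Nif. With each compound left out, GC minus NC of CYP3A4_1 ran from -0.061 to 0.13. The filter on dim analytes, the pseudocount of 0.1 and the trended robust variance changed no CYP3A4 call. Precision is limited by 3 animals a group, by their selection and by dosing times that differ in the labels.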
